A study of Mus musculus with 10 samples.

Results

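The genes described here encode the proteins that recognise and cut introns out of messenger RNA precursors. They comprise 12 SR proteins and their Tra2 relatives, 15 subunits and helpers of the core spliceosome, and 16 heterogeneous nuclear ribonucleoproteins (hnRNPs) and related RNA-binding proteins. They were taken from the table by symbol, as a set picked with earlier results of these data known, and all 43 were found among the 43629 genes of the count table. The counts came from male kidneys of the UM-HET3 stock, a genetically mixed cross of inbred strains, all taken at 4 months. Rilmenidine, an imidazoline receptor agonist used against high blood pressure, was given at 10 ppm in the diet from 3 months of age for 1 month. Their 6 control littermates ate the same diet without the drug, against 4 treated animals. The study's methods describe more control kidneys than the 6 analysed here. Each library was 1 animal.

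SR proteins carry a domain rich in serine and arginine, bind enhancers within exons and help to recruit the spliceosome. Many hnRNPs bind silencers or introns and oppose that recruitment, so the balance of both families sets which exons are kept. The core spliceosome is built from small nuclear RNAs held in rings of Sm proteins, joined by factors that read the branch point and the end of the intron. Malat1 is an abundant long noncoding RNA of nuclear speckles, the compartments where SR proteins are stored. SR protein transcripts are themselves known for exons that send the message to decay and for introns held back in the nucleus, so that their level is under tight control.

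Total counts ranged from 863605 to 3232063 reads per library, with a mean of 1562570 in controls and 2503010 in treated kidneys (exact permutation test over 210 splits, two-sided, p = 0.0667). Tubule markers were present in every library, with a summed level of 40689 to 54363 CPM (reads scaled to a common library size) in controls and 44536 to 68211 in treated kidneys. The extraction text names liver. The 6 liver markers summed to 2156 to 3712 CPM in controls and 1980 to 3071 in treated kidneys, mostly from Cyp2e1 (1568 to 2812 CPM) and Ttr (394 to 874 CPM), while Alb, the main liver secretory transcript, was at 0 to 11.98 CPM and Apoa1 at 0 to 2.40. Blood and immune markers summed to 1019 to 8985 CPM in controls and 2971 to 4218 in treated kidneys, and their part in the results was not tested. Malat1 stood at 1482, 398, 1182, 1466, 2100 and 284 CPM in control kidneys 1 to 6 and at 339, 351, 306 and 393 CPM in the rilmenidine kidneys. Control kidneys 2 and 6 thus lay with the treated animals, and no kidney lay between 398 and 1182 CPM. Read depth had the same split. Control kidneys 1, 3, 4 and 5 had 863605, 1187020, 1334020 and 1644042 reads, and every other kidney had 1787638 or more. Malat1 range and depth therefore cannot be told apart in that split. The difference between the groups in log2 Malat1 had p = 0.0857 in the exact permutation test. In whole tissue, fewer cells of a type and less RNA per cell cannot be told apart.

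Of the 43 genes, 39 passed the filter, which asked for 6 reads or more in 7 of the 10 libraries, and were tested among 10055 genes. Srsf1, the prototype SR protein, had 0 reads in all 10 libraries. Srsf4 had at most 2 reads in a library, Hnrnpa1 at most 9 and Ptbp1, which binds pyrimidine tracts, 2 to 9. None of these 4 levels is interpreted. The 3′ ends of the transcripts were searched on either strand for near-identical sequence in other genes, of at least 100 bases at 95% identity. It was found for 14 of the 43. For some, such as Srsf2 with Mettl23, the other gene lies on the opposite strand of the same locus. Hnrnph1 shared such a stretch with Setd1b, which had 129 reads in all libraries against 801 for Hnrnph1. Hnrnpa3 had the most, with 30 such genes. The counts of Hnrnpa3 are uncertain for that reason. Also uncertain are those of genes that overlap another, such as Srsf2 with Mettl23 and Hnrnpab with Phykpl. This is because the strand setting of the counting was not given in the sources used here. Of the 39 genes tested, 18 overlap another gene, among them Srsf11 with Gm43362 on the same strand and Tardbp with Masp2 on the opposite strand.

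**Figure D1:**
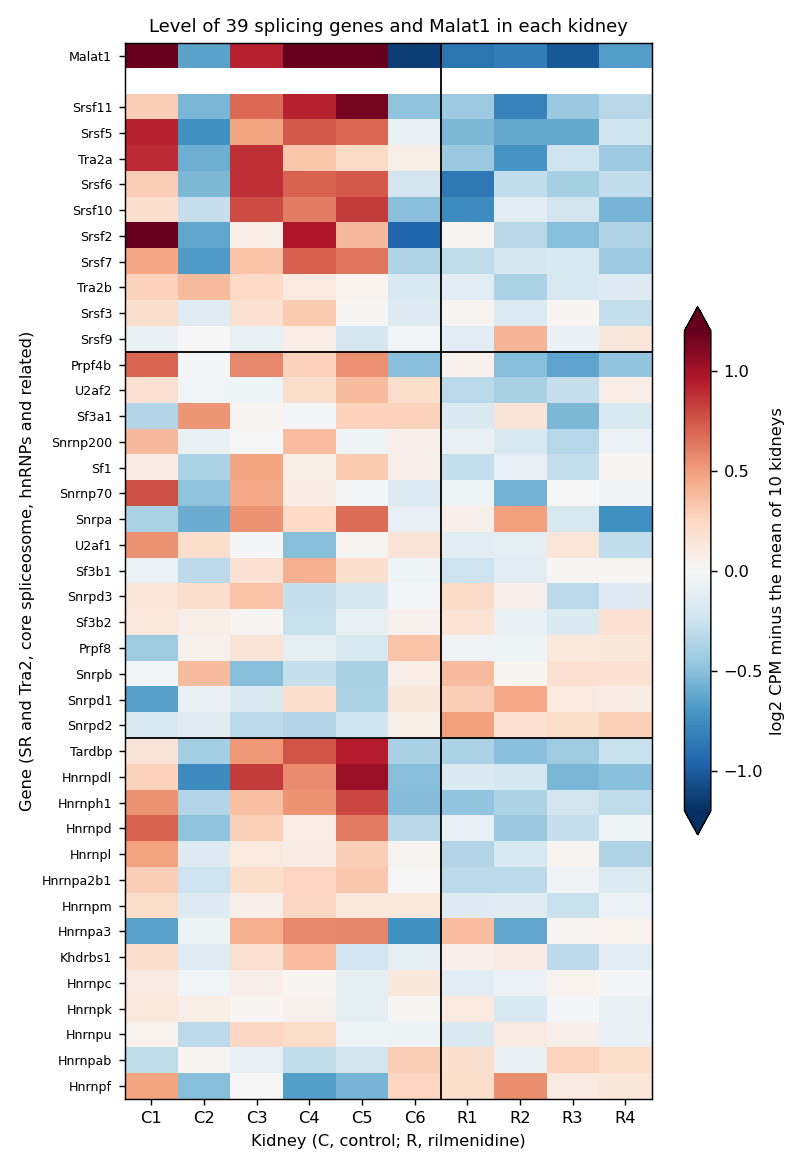
Level of Malat1 (top row) and the 39 tested splicing genes in each of the 10 kidneys, as log2 CPM minus the mean of that gene over all kidneys, with columns C1 to C6 for control and R1 to R4 for rilmenidine. Rows are grouped as SR and Tra2 genes, core spliceosome and hnRNPs, and ordered by fold change within each group. Red marks a level above the mean and blue below, and the scale is capped, so the most extreme Malat1 cells are beyond it. Most SR rows are red in C1, C3, C4 and C5 and blue in C2, C6 and R1 to R4.

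The first question was whether these genes differed between rilmenidine and control kidneys. None of the 39 did after adjustment over all genes in edgeR's quasi-likelihood test, and 0.0% of the 10055 genes tested were called. The lowest adjusted p among the 39 was 0.232. DESeq2 called 1 of them, Srsf5, among 60 genes in all. EdgeR's likelihood ratio test called 0 of them among 44 genes, and the quasi-likelihood test without control kidney 2 called 1, again Srsf5, among 33. At an unadjusted p under 0.05, 15 were lower and 2 higher under rilmenidine, that is 15 of 39 against 6.13% of all genes lower and 2 of 39 against 4.43% higher. The log2 fold change was below 0 for 79.5% of the 39 and for 49.7% of all genes, with a median of -0.28 against 0.00206. Only 1 of the 39, Snrpd2, had groups that did not overlap, against 1.67% of all genes.

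The families had different medians. Among the 10 SR and Tra2 genes, 9 had a fold change below 0, 7 of them at an unadjusted p under 0.05, and the median was -0.71. The 15 core genes had a median of -0.19, with 2 lower and 2 higher at that level. Of the 14 hnRNP genes, 6 were lower and none higher, with a median of -0.20. No test compared the families.

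Srsf5, an SR protein that responds to growth signals, was at 36.5 CPM in the lowest control kidney, 92.5 at the median and 117 at the highest. The treated kidneys had 41.7, 39.6, 39.5 and 51.8 CPM, a log2 fold change of -0.92 (SE 0.25) with edgeR's unadjusted p = 0.00213 and adjusted p = 0.232. All treated kidneys lay between control kidney 2 and control kidney 6, which had 57.3 CPM, and below the other 4 controls. Srsf6, a regulator of exon inclusion, spanned 76.7 to 207 CPM in controls around a median of 161, against 61.5, 91.2, 84.7 and 90.9 under rilmenidine. Its log2 fold change was -0.84 (SE 0.24, edgeR's unadjusted p = 0.00297), and only the first treated kidney lay below every control.

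Srsf11, an SR-related protein of the early spliceosome, reached 285, 372, 440 and 517 CPM in control kidneys 1, 3, 4 and 5. Controls 2 and 6 had 158 and 165 CPM, and the treated kidneys had 172, 133, 170 and 184. The log2 fold change was -0.97 (SE 0.28, edgeR's unadjusted p = 0.00329), the most negative of the 39. Treated kidneys lay near the 2 low controls and under the other 4. Srsf10, which turns from activator to repressor of splicing when it loses phosphate, had 40.2 CPM in the lowest control, 77.7 at the median and 104 at the highest, and 33.6, 52.1, 49.3 and 38.7 under rilmenidine. Its log2 fold change was -0.76 (SE 0.25, edgeR's unadjusted p = 0.00758).

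Srsf7, known for shuttling between nucleus and cytoplasm, ran from 45.5 to 122 CPM in controls with a median of 98.0. Treated kidneys had 59.2, 63.5, 64.7 and 54.0 CPM, within that range, for a log2 fold change of -0.55 (SE 0.23, edgeR's unadjusted p = 0.0299). Tra2a and Tra2b bind purine-rich enhancers. Tra2a had a control median of 15.03 CPM, from 7.79 to 23.6, against 8.70, 7.06, 10.1 and 8.74 under rilmenidine, on 13 to 33 reads a library, so its fold change of -0.84 (SE 0.29) rested on little depth. Tra2b went from a control median of 63.6 CPM (range 49.5 to 73.7) to 51.0, 42.9, 49.0 and 50.6, a log2 fold change of -0.37 (SE 0.14). EdgeR's unadjusted p was 0.0109 for Tra2a and 0.0202 for Tra2b.

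The remaining SR genes did not reach that level. Srsf2, a resident of nuclear speckles, spread widely in controls, at 112, 28.8, 47.3, 88.4, 59.0 and 22.6 CPM, and had 45.8, 35.3, 31.1 and 34.7 in treated kidneys. Every treated value lay inside the control range, and the log2 fold change of -0.66 (SE 0.35) had an unadjusted p of 0.0733 in edgeR. Srsf3 and Srsf9 had log2 fold changes of -0.17 (SE 0.13) and 0.15 (SE 0.15).

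The highest fold change was that of a core spliceosome gene. Snrpd2, a subunit of the Sm ring on most spliceosomal small nuclear RNAs, had 49.8 CPM in the lowest control kidney, 55.0 at the median and 67.1 at the highest. In treated kidneys it stood at 90.5, 72.2, 74.5 and 78.1 CPM, all above every control. The log2 fold change was 0.49 (SE 0.13), with edgeR's unadjusted p = 0.00195 and adjusted p = 0.232. Snrpd1, its neighbour in the ring, had a control median of 36.0 CPM (24.7 to 45.3) and 48.7, 54.3, 42.7 and 41.9 under rilmenidine. Its log2 fold change of 0.36 (SE 0.17) had an unadjusted p of 0.04997 in edgeR, at the very edge of the threshold. The other Sm proteins among the 15 core genes, Snrpb and Snrpd3, had log2 fold changes of 0.28 (SE 0.16) and -0.09 (SE 0.20). Snrpe, Snrpn and Snrpg, Sm proteins of the further lists, had 0.21 (SE 0.14), 0.15 (SE 0.21) and 0.03 (SE 0.30). Only Snrpd3 was below 0, by less than its SE, and Snrpn and Snrpg were above 0 by less than theirs.

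Prpf4b, a kinase that phosphorylates the tri-snRNP before activation, spanned 27.3 to 64.0 CPM in controls around a median of 52.7. Treated kidneys had 40.6, 27.2, 24.8 and 27.8 CPM, a log2 fold change of -0.69 (SE 0.23, edgeR's unadjusted p = 0.00773). The first treated kidney lay among the controls and the others at or near the lowest control. U2af2 binds the pyrimidine tract before the intron's end. Its control median was 97.4 CPM (82.2 to 111) against 67.8, 64.6, 70.0 and 89.9, for a log2 fold change of -0.37 (SE 0.14, edgeR's unadjusted p = 0.0160). Of these 4, all but the last lay below every control.

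The other core genes did not reach an unadjusted p under 0.05. Sf1 and Sf3b1, which recognise the branch point, had log2 fold changes of -0.28 (SE 0.15) and -0.16 (SE 0.14). Sf3b2, a partner of Sf3b1, had 103 to 135 CPM in controls (median 127) and 138, 116, 109 and 140 in treated kidneys, a log2 fold change of 0.04 (SE 0.12). Prpf8, the scaffold of the catalytic centre, had 53.9 to 92.4 CPM (median 71.6) and 70.7, 70.0, 79.8 and 79.9, for a log2 fold change of 0.05 (SE 0.15). In both the groups overlapped. The other 6 core genes (U2af1, Sf3a1, Snrnp70, Snrnp200, Snrpa and Snrpd3) lay between -0.37 and -0.09.

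Among the hnRNPs, Tardbp, which encodes TDP-43, a repressor of cryptic exons, had 142, 95.9, 183, 217, 247 and 97.1 CPM in control kidneys 1 to 6. The treated kidneys had 98.0, 90.1, 94.8 and 106 CPM, near controls 2 and 6 and below the other 4. Its log2 fold change was -0.75 (SE 0.24, edgeR's unadjusted p = 0.00570, adjusted p = 0.288). Hnrnph1, which binds runs of G, spanned 29.6 to 75.8 CPM in controls with a median of 59.2, and stood at 30.7, 33.1, 36.7 and 34.7 in treated kidneys. Here too the treated values sat beside controls 6 and 2, at 29.6 and 33.6 CPM, and the log2 fold change was -0.63 (SE 0.23, edgeR's unadjusted p = 0.0145).

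Hnrnpdl, a relative of Hnrnpd that binds AU-rich RNA, ran from 54.5 to 191 CPM in controls (median 126) against 82.9, 80.4, 63.7 and 65.9 under rilmenidine. Its log2 fold change was -0.73 (SE 0.29, edgeR's unadjusted p = 0.0199). Hnrnpa2b1, a packaging and transport protein, had a tighter control range of 249 to 370 CPM (median 348), and treated values of 237, 238, 287 and 264. The first 2 treated kidneys lay below every control, and the log2 fold change was -0.36 (SE 0.13, edgeR's unadjusted p = 0.0160). Hnrnpl, which binds CA repeats, had 58.7 to 92.0 CPM (median 70.6) against 51.0, 57.6, 67.2 and 50.9, a log2 fold change of -0.36 (SE 0.15, edgeR's unadjusted p = 0.0282). Hnrnpm, a regulator of exon skipping, had a log2 fold change of -0.27 (SE 0.12, edgeR's unadjusted p = 0.0372).

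Several hnRNPs stayed close to 0. Hnrnpu, a nuclear matrix protein, had 142 to 210 CPM in controls (median 176) and 157, 190, 185 and 167 in treated kidneys, with a log2 fold change of -0.04 (SE 0.13). Hnrnpk, which binds C-rich RNA, and Hnrnpc, which binds uridine tracts, had -0.07 (SE 0.11) and -0.08 (SE 0.11). The highest values were those of Hnrnpf at 0.40 (SE 0.25) and Hnrnpab at 0.23 (SE 0.15). The remaining hnRNPs were Hnrnpd, which promotes decay of AU-rich messages, at -0.41 (SE 0.22), Hnrnpa3 at -0.13 (SE 0.29) and Khdrbs1 at -0.12 (SE 0.19).

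**Figure D2:**
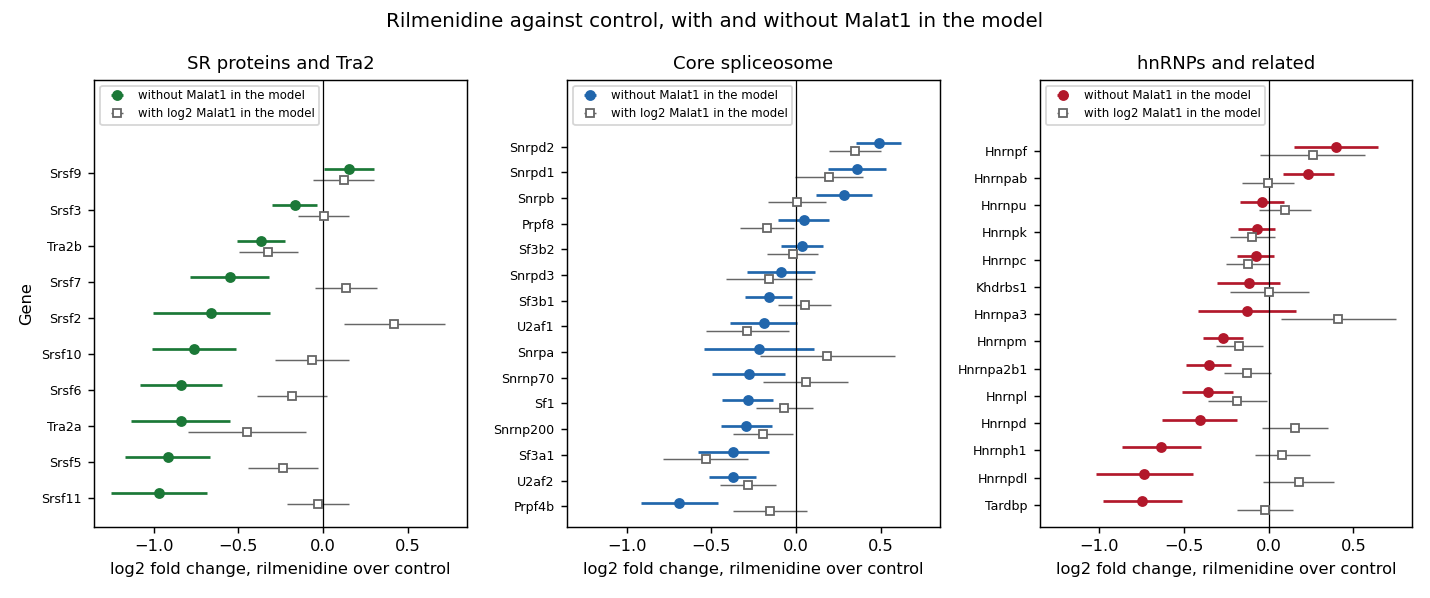
log2 fold change of rilmenidine over control for the 39 tested genes, one panel a family, with bars of 1 standard error. Filled points are from the model of group alone and open squares from the model that also holds log2 Malat1. Filled SR points lie between -0.97 and 0.15, with a median of -0.71, and the open SR squares have a median of -0.05.

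The counts of differences changed with depth in the model. With log2 library size in the model, 1 of the 39 was lower and 1 higher at an unadjusted p under 0.05, in place of 15 and 2. Of all 10055 genes, 432 reached that level in either direction, in place of 1061, so calls fell over the whole table. The median log2 fold change of the 39 was -0.16 in place of -0.28. A filter that asked for only 1 read in any library called 241 of 27565 genes, 8 of them among the 42 splicing genes it let through, namely Srsf2, Srsf5, Srsf6, Srsf10, Srsf11, Prpf4b, Hnrnpdl and Tardbp.

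The second question was how the genes ran along Malat1 from kidney to kidney. Malat1 fell into separate ranges, so the slope, given as log2 change per doubling of Malat1 with group in the model, compares in the main controls 1, 3, 4 and 5 with controls 2 and 6. Controls 2 and 6 also had more reads than controls 1, 3, 4 and 5. In edgeR's test 8 of the 39 rose with Malat1 at an adjusted p under 0.05, against 0.826% of all genes, and 0 fell, against 0.159%. DESeq2 called 11 of the 39 among 312 genes in all, and the likelihood ratio test 11 among 224, in both the same 8 with Srsf6, Hnrnpd and Prpf4b. At an unadjusted p under 0.05, 13 had a positive slope against 8.2% of all genes and 3 a negative slope against 7.84%. The 8 were 5 SR genes and 3 hnRNPs, with no core gene among them. The median slope was 0.43 for SR and Tra2 genes, -0.04 for core genes and 0.11 for hnRNPs, beside 0.00494 for all genes.

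Srsf11 rose by 0.58 (SE 0.09) per doubling of Malat1, a 1.496-fold change, with an adjusted p of 0.0065 in edgeR. Tardbp, Hnrnph1 and Hnrnpdl rose by 0.47 (SE 0.08), 0.46 (SE 0.07) and 0.57 (SE 0.10), with edgeR's adjusted p of 0.0116, 0.00894 and 0.0143. In each of these 4 genes, control kidneys 2 and 6 were below the other 4 controls, and control 5, with the highest Malat1, had the highest level. Hnrnph1 was at 62.9, 55.6, 63.1 and 75.8 CPM in control kidneys 1, 3, 4 and 5.

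Among SR genes, Srsf2 rose by 0.68 (SE 0.14) per doubling, Srsf7 by 0.44 (SE 0.08), Srsf5 by 0.45 (SE 0.10) and Srsf10 by 0.45 (SE 0.10). Their adjusted p in edgeR were 0.0295, 0.0235, 0.0382 and 0.0445. Srsf2 did not follow Malat1 in order, since its highest value was in control 1 and its value in control 5 was below that in control 4. Srsf6 and Hnrnpd came close, with slopes of 0.43 (SE 0.10) and 0.38 (SE 0.09) and edgeR's adjusted p of 0.0520 and 0.0564. The 3 negative slopes at an unadjusted p under 0.05 were those of Snrpb at -0.22 (SE 0.08), Hnrnpab at -0.19 (SE 0.07) and Prpf8 at -0.17 (SE 0.07).

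As a family, the 10 SR and Tra2 genes averaged 0.48, 0.44, 0.55 and 0.45 above their own mean log2 level in control kidneys 1, 3, 4 and 5. They averaged -0.37 and -0.29 in controls 2 and 6, and -0.35, -0.32, -0.29 and -0.30 in the 4 treated kidneys. The hnRNP averages had the same split, at 0.19 to 0.25 in the first 4 and at -0.25 to -0.09 in the other 6. Core spliceosome averages stayed between -0.13 and 0.11 in every kidney. These averages are a description, since the kidneys in the low range include both groups.

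**Figure D3:**
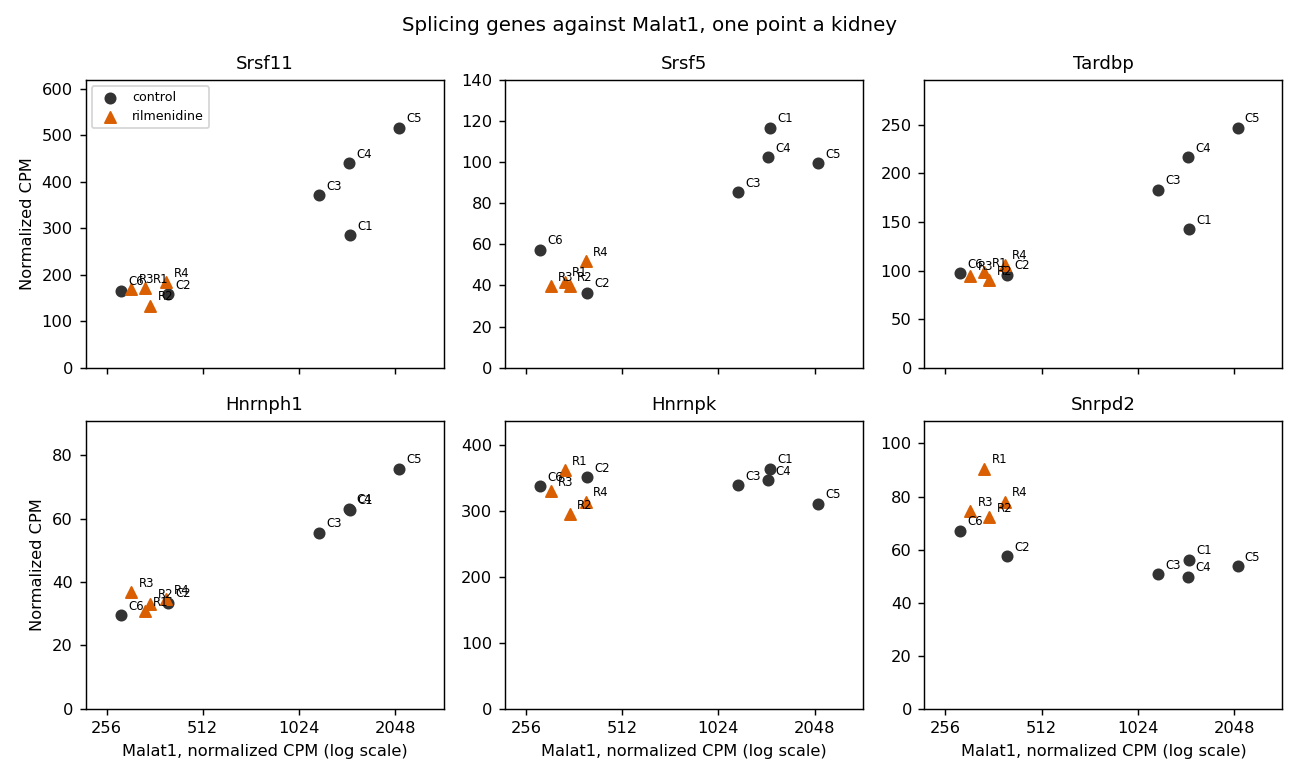
Level of 6 splicing genes (normalized CPM, linear axis from 0) against Malat1 (normalized CPM, log scale), with 1 point a kidney, dark circles for control and orange triangles for rilmenidine. For Srsf11, Srsf5, Tardbp and Hnrnph1, controls C1, C3, C4 and C5 stand apart at the upper right, and C2 and C6 lie among or near the treated kidneys. Hnrnpk is level across the axis, and Snrpd2 is above every control in the treated kidneys.

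The calls along Malat1 rested on single control kidneys. With all 10 kidneys, 8 of the 39 were called among 99 genes in all. Leaving out control kidney 2 left 0 of the 39 among 0 genes in all, and leaving out control kidney 6 left 0 among 1. Without control 5 there was 1, Srsf2, among 10 genes, and without control 4 there were 4 among 22. The loss was thus over the whole table. All 8 slopes kept their sign without any single kidney, which says little for genes picked by that slope in the same kidneys. Control 2 had 20087 genes detected, against 14491 to 17169 in the other controls. Its mitochondrial share of reads was 7.09%, against 9.26% to 15.2%. Odour and pheromone receptor genes summed to 332 CPM in it, against 8.99 to 179. What part this had in the calls was not tested. With log2 library size in the model 4 of the 39 were called among 58 genes in all, and in the 6 controls alone 9 among 136.

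The letters before the start of the gene were compared for the genes that rose with Malat1. RefSeq gave windows of 250 bases before the start for 39 of the 43 genes, which are not the 39 tested, since 35 of them were tested and the other 4 were Srsf1, Srsf4, Hnrnpa1 and Ptbp1. Below are the stretches of at least 150 bases outside every annotated exon for the 4 of these genes with the smallest slope p that had such a stretch, on the gene's own strand, from RefSeq on GRCm38.p6. Capitals mark the letters of any motif searched, on either strand. The motifs were the CCAAT box of NF-Y, the GGGCGG box of Sp factors, the TATAAA box, the CCGGAAG site of ETS factors, the CACGTG box of basic helix-loop-helix factors and the TGACGT core of the cAMP response element.
Hnrnph1, chr11:50376740-50376989, plus strand: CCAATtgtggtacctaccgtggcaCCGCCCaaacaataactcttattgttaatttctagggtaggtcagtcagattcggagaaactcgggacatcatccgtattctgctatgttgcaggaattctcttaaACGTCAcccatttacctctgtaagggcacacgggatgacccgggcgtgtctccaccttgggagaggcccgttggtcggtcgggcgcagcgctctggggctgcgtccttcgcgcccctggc
Tardbp, chr4:148627020-148627246, minus strand: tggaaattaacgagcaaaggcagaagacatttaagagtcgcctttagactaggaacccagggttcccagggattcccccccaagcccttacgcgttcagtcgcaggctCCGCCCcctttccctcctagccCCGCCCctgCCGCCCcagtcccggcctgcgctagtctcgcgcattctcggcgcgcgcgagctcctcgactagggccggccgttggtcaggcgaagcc
Srsf7, chr17:80207308-80207459, minus strand: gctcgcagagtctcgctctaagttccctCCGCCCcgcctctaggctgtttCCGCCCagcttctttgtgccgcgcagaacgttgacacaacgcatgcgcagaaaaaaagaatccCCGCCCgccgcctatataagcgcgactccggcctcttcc
Srsf2, chr11:116853095-116853294, minus strand: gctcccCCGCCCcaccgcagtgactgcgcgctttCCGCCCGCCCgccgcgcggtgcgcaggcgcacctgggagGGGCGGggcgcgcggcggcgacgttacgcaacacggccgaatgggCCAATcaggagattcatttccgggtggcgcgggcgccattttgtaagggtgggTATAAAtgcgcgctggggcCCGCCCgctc

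Each of these 4 stretches held GGGCGG or its reverse complement CCGCCC, which can overlap itself in runs of C. The motif was in the windows of all 8 genes that rose with Malat1, in 30 of the 39 windows of splicing genes (76.9%) and in 32.9% of the 27025 windows of all genes. The windows of the splicing genes had a median GC content of 59.6%, against 52% for all genes. TATAAA was in 4 of the 39 windows (10.3%), Srsf2 among them, against 13% of all. TGACGT was in 12 of these windows (30.8%) against 6.56%, including Hnrnph1, and CCGGAAG in 10 (25.6%) against 7.05%. CCAAT was in 46.2% against 34.5%, and CACGTG in 4 (10.3%) against 6.05%. Such matches describe the letters only.

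The third comparison set rilmenidine against control at equal Malat1. None of the 39 was called by edgeR's quasi-likelihood test, its likelihood ratio test or DESeq2, and at an unadjusted p under 0.05, 1 was higher and 1 lower, against 1.47% and 1.56% of all genes. The median log2 fold change of the 39 was -0.02 in place of -0.28, and the SR median was -0.05 in place of -0.71. Srsf11 went from -0.97 to -0.03 (SE 0.18), Tardbp from -0.75 to -0.02 (SE 0.16), and Srsf2 from -0.66 to 0.42 (SE 0.30). Snrpd2 kept a log2 fold change of 0.35 (SE 0.15) and Sf3a1, a subunit of the U2 complex, had -0.53 (SE 0.25). In all, 15 of the 39 had the opposite sign at equal Malat1. Several of these lay close to 0 there, such as Srsf3 at 0.003 (SE 0.15) and Hnrnpab at -0.004 (SE 0.15), unlike Srsf2. How many of all genes changed sign was not counted. Malat1 in the treated kidneys spanned 306 to 393 CPM, and the nearest controls, 2 and 6, lay just outside at 398 and 284, so away from these 2 controls group and Malat1 cannot be told apart.

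Other splicing genes were counted from 11 further lists, of which 156 genes were tested. At an unadjusted p under 0.05, 28 of the 156 were lower and 3 higher under rilmenidine, against 6.13% and 4.43% of all genes. Along Malat1, 11 rose at an adjusted p under 0.05, against 0.826%. The same shares of all genes apply to each list below, and groups that did not overlap were found in 1.67% of all genes. Of the 20 other SR-related genes tested, 10 were lower and none higher, with a median log2 fold change of -0.39, and 6 rose with Malat1. The 2 with the smallest p were Luc7l2, a partner of the U1 complex, and Pnn, which is found in speckles and at cell junctions. Pnn was at 30.0 CPM or above in every control (79.7, 38.4, 58.9, 95.8, 78.7 and 30.0) and at 25.5, 26.6, 22.4 and 25.3 under rilmenidine. Its groups did not overlap, and its log2 fold change was -1.33 (SE 0.28, edgeR's unadjusted p = 0.000173, adjusted p = 0.174). Luc7l2 also had groups that did not overlap, with a log2 fold change of -0.97 (SE 0.20, edgeR's unadjusted p = 0.000121).

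Kinases that phosphorylate SR proteins had fold changes below 0 in all 6 genes tested. Clk1 was at 97.6, 41.9, 134, 135, 177 and 38.99 CPM in control kidneys 1 to 6 and at 48.7, 61.4, 31.1 and 44.0 in treated kidneys. Its log2 fold change was -1.17 (SE 0.36, edgeR's unadjusted p = 0.00516), and it rose by 0.78 (SE 0.11) per doubling of Malat1 with an adjusted p of 0.00414 in edgeR, the steepest slope of the named genes after that of Neat1. Clk4 had -0.92 (SE 0.36) and rose by 0.67 (SE 0.15) per doubling (edgeR's adjusted p = 0.0439), and Clk2 had -0.67 (SE 0.37). Clk3 had too few reads to be tested. Of the import and phosphatase genes, none of 3 reached an unadjusted p under 0.05, with Ppig at -0.38 (SE 0.19) and Tnpo3, the importer of SR proteins, at -0.25 (SE 0.26).

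Parts of the spliceosome had lists whose medians lay near 0. The 10 further Sm and LSm genes had a median log2 fold change of 0.07, with Lsm4 at 0.32 (SE 0.21) and Snrpe at 0.21 (SE 0.14). For 14 tri-snRNP genes the median was -0.03, with Snu13 at 0.44 (SE 0.22) and Prpf3 at -0.42 (SE 0.26). Among 18 further U1 and U2 genes it was -0.07, with 2 lower and 2 higher at an unadjusted p under 0.05. Prpf39 and Rbm25, which help the U1 complex to choose its site, were the 2 lower ones named, at -1.30 (SE 0.35) and -0.72 (SE 0.22), and both rose with Malat1 at edgeR's adjusted p of 0.0065 and 0.0246.

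Across 23 Prp19 complex and catalytic genes the median was 0.01, but 3 were lower, among them Prpf38b at -1.16 (SE 0.23, edgeR's unadjusted p = 0.0001) and Prpf18 at -0.43 (SE 0.16). The groups of Prpf38b did not overlap. The 25 other hnRNPs had a median of -0.04 and 1 lower gene, Sfpq, a paraspeckle protein, at -0.60 (SE 0.17), while Rbmx was at -0.39 (SE 0.21). Of 11 exon junction and decay genes, 3 were lower, such as Smg1 at -0.72 (SE 0.22), and 1 higher, Eif4a3, the anchor of the exon junction complex, at 0.49 (SE 0.18). Of 20 other regulators, 5 were lower, such as Tia1 at -0.85 (SE 0.22) and Fubp1 at -0.80 (SE 0.24). In the minor spliceosome, which removes a rare class of introns, 2 of 6 were lower, Rnpc3 at -0.86 (SE 0.37) and Snrnp48 at -0.44 (SE 0.18).

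**Figure D4:**
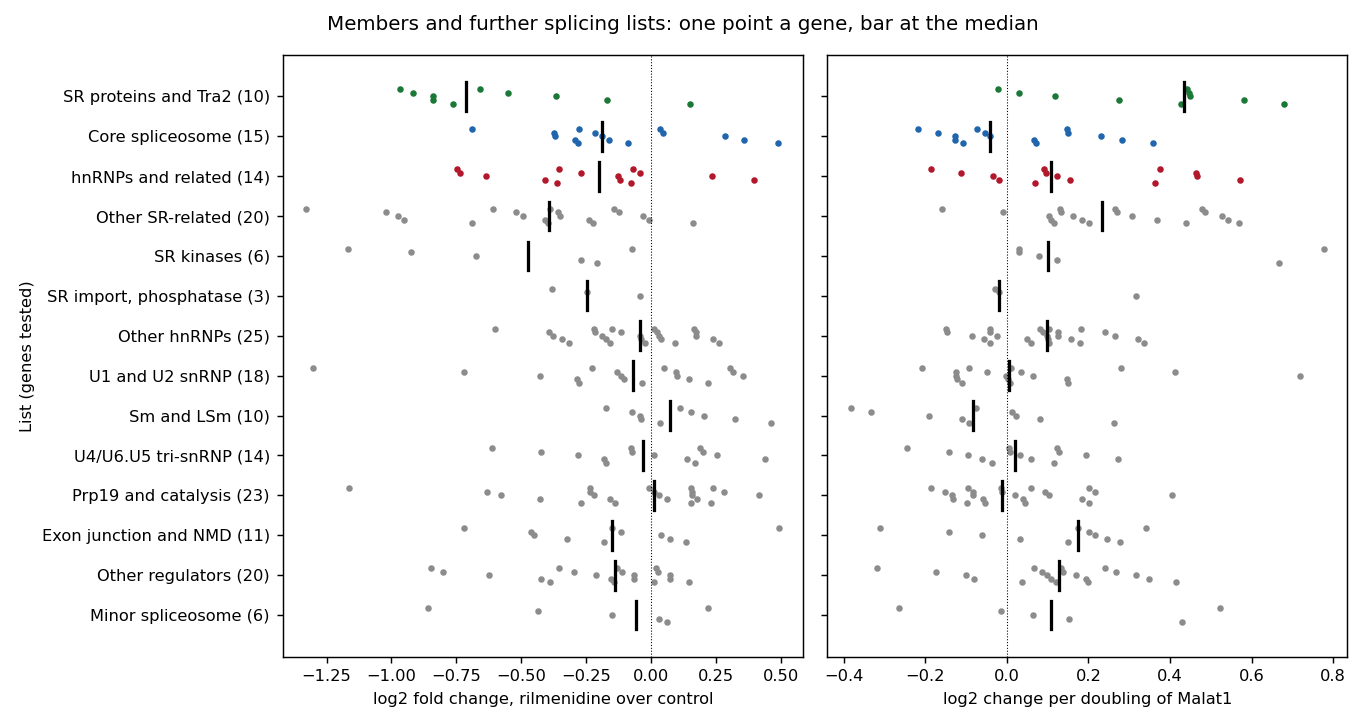
Each point is a tested gene and each black bar the median of its list, with the number of genes tested in parentheses. The left panel gives the log2 fold change of rilmenidine over control and the right panel the log2 change per doubling of Malat1. The SR bar stands at -0.71 on the left and 0.43 on the right, and the bars of the Sm, tri-snRNP and Prp19 lists lie near 0 on both sides.

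Neat1, the long noncoding RNA of paraspeckles, had a log2 fold change of -2.22 (SE 0.46, edgeR's adjusted p = 0.174) and Malat1 itself -1.73 (SE 0.42, edgeR's adjusted p = 0.211). Both lay further from 0 than any of the 39 genes.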

How the data were processed

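The deposited values are raw read counts per Ensembl gene of 10 kidney libraries, which the authors made by a CEL-Seq2-type protocol that reads the 3′ end of polyadenylated RNA. The submitters' processing notes name bcl2fastq 1.8.4, Trimmomatic 0.32, STAR 2.5.2b, featureCounts 1.5 and the mm10 genome. The annotation release, strand setting and treatment of molecular identifiers are not given in the sources used here. Uncollapsed duplicates would overstate the number of molecules. Gene positions and overlaps came from GENCODE M21, in which 42462 of 43629 genes were found.

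Groups and replicate numbers were taken from the labels. The filter kept genes that had 6 reads or more in 7 of the 10 libraries. All 10 libraries, scaled by RLE, entered edgeR 4.0.16 (R 4.3.3), whose quasi-likelihood p-values received Benjamini-Hochberg adjustment over all genes tested, with a threshold of 0.05. The slope model held group and centred log2 Malat1 CPM (prior count 2). Levels are CPM on the scaled library size. Exact permutation tests used scipy 1.17.1. The fitting code was tested on simulated data.

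The genes and lists were chosen with earlier results of these data known. Full values were given for the 15 genes with the smallest group p, the 10 with the smallest slope p and the 3 with a fold change nearest 0, and 2 genes of each further list by group p, with Malat1, Neat1 and the Clk genes. Alternatives were DESeq2 1.42.0, TMM, a likelihood ratio test, other filters, covariates, fewer libraries and a replicate block.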

Additional observations from a re-analysis of the deposited data

Results flagged for a closer look

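Among 90 sets of a named gene in 1 group of kidneys, 2 had a kidney far from the others by Dixon's criterion, which chance alone meets in about 1 of 20 sets. Prpf38b was at 39.9 CPM in rilmenidine kidney 3, against 58.1 to 58.6 in the other treated kidneys. Snrnp48 was at 17.4 CPM in rilmenidine kidney 2, against 29.0 to 32.2 in the others. Both are genes of the further lists, and neither value is from a gene of the 3 main families.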

How the results depend on the processing

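Counts below are genes at an adjusted p under 0.05 unless an unadjusted p is named, and the cause of each change was not tested. In the group comparison, asking for only 1 read in some library gave 241 genes, 8 of them splicing genes, DESeq2 gave 60 and 1, and the likelihood ratio test gave 44 and 0. At an unadjusted p under 0.05, the splicing genes higher under rilmenidine were 1 in place of 2 with either other filter (1 read in some library, or 10 reads in each), with DESeq2 and with the likelihood ratio test. Those lower numbered 16 and 15 with these filters, 15 with DESeq2 and 14 with the likelihood ratio test, beside 15 before. A depth covariate, log2 of the library size, left 1 higher and 1 lower in place of 15, and turned Hnrnpu to 0.055 and Prpf8 to -0.18. With log2 Malat1 as a covariate 1 was higher and 1 lower, the median was -0.020, 15 of the 39 genes changed sign, and among the genes named for their group p or for a fold change nearest 0 the log2 fold change turned to 0.080 for Hnrnph1, 0.18 for Hnrnpdl, 0.14 for Srsf7, -0.020 for Sf3b2, 0.095 for Hnrnpu, -0.17 for Prpf8, 0.10 for Clk1, 0.13 for Clk4, 0.094 for Ppig, 0.073 for Rbmx and -0.086 for Lsm4. Without each kidney in turn, 0 to 37 genes were called (33 without control 2, 37 without control 6 and 6 without rilmenidine 1). Of the splicing genes, 0 to 1 were called (Srsf5, without control 2). At an unadjusted p under 0.05, 1 to 3 splicing genes were higher and 11 to 19 lower. The log2 fold change then ran from -0.019 to 0.13 for Prpf8, from -0.10 to 0.0076 for Hnrnpu and from -0.019 to 0.097 for Sf3b2. Of the 39 genes, 34 kept their sign throughout.

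Along Malat1, the 99 genes called became 345 with only 1 read asked for, 312 with DESeq2, 224 with the likelihood ratio test and 58 with library size, which left 4 of the 8 splicing genes. Without the group term 863 genes and 15 splicing genes were called, 20 with a positive slope at an unadjusted p under 0.05. In the 7 libraries where odour and pheromone receptor genes summed to 10 CPM or more, 2 genes and 0 splicing genes were called. Control 6 and rilmenidine kidneys 3 and 4 lay below that level. Negative slopes at an unadjusted p under 0.05 numbered 1 in place of 3 with the loose filter, with library size and in those 7 libraries. Positive slopes at that level numbered 13 in each of these, as before. Without each kidney in turn, 0 to 175 genes (175 without control 1, 22 without control 4, 10 without control 5, 1 without control 6 and 0 without control 2) and 0 to 9 splicing genes were called. At an unadjusted p under 0.05, 12 to 14 slopes of splicing genes were positive and 1 to 3 negative. An alternative chosen after seeing the data left out control 2 and rilmenidine 2 together, which had the most genes detected of their groups, 20087 and 22848. It gave 8 genes in the group comparison and, along Malat1, 10 genes and 0 splicing genes.

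At equal Malat1, the loose filter gave 66 genes and leaving out a kidney 0 to 2. The median over the splicing genes ran from -0.085 to 0.062 without each kidney in turn, positive without control 6, and was 0.030 in the 7 libraries.

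Replicate numbers are shared between the groups, and same-numbered kidneys deviated together with correlations of only 0.08, 0.08, -0.08 and -0.01 over the tested genes. Kidney 2 of each group had the highest receptor gene level of its group, 332 CPM in control and 436 CPM under rilmenidine. Whether the numbers mark a pair or a batch was not tested. A replicate block gave 3 genes in the group comparison. At an unadjusted p under 0.05, 1 splicing gene was then higher and 13 were lower. Along Malat1 the block gave 0 genes and 0 splicing genes, with a median slope of 0.23. At an unadjusted p under 0.05, 10 of its slopes were positive and 1 negative. At equal Malat1 the block gave a median of 0.013. Kidneys number 10, and genes with few reads, such as Tra2a, are limited by depth.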
